A study of Mus musculus with 6 samples.

Results

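The genes described here are the 10 that encode the subunits of NF-kB and the inhibitors that NF-kB induces against itself, chosen by name from the 31053 genes of the deposited counts. The subunits are Rela, Relb, Rel, Nfkb1 and Nfkb2, and the feedback inhibitors are Nfkbia, Nfkbie, Nfkbiz, Tnfaip3 and Bcl3. All 10 were found in the counts, and 9 passed the minimum on expression. The 10 levels come from RNA-seq of cells sorted as quiescent muscle stem cells (qMuSCs), the Pax7-expressing cells that lie at rest on muscle fibers. The mice were with and without deletion of Dio2, the gene of the thyroid hormone activating enzyme D2. The 3 WT mice (c124, c129 and c130) had the genotype Pax7nGFP/+;Pax7+/+;Dio2Fl/Fl, and the 3 cD2KO mice (fl125, fl126 and fl128) had Pax7nGFP/+;Pax7-CreERT2/+;Dio2Fl/Fl. Mice of both groups were 3 to 4 months old, carried floxed Dio2 and a GFP reporter driven by Pax7, and received tamoxifen, so that Cre, which tamoxifen activates in cells that express Pax7, was present in 1 group only and cannot be told apart from the loss of Dio2. Cells were released from resting hindlimb muscle by enzymes and sorted by FACS for GFP, and 1 library was made from each mouse.

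NF-kB is a dimer of Rel-family proteins that waits in the cytoplasm bound to an inhibitor of the IkB family. Ligands such as TNF or IL-1 activate the IKK kinases, which mark the inhibitor for destruction, and the freed dimer enters the nucleus and binds kappa-B sites in promoters. Among the genes it then switches on are those of its own inhibitors, so that the levels of these mRNAs are widely read as a sign of recent NF-kB activity. In muscle the pathway is known for its response to inflammatory cytokines, and macrophages and endothelial cells use it strongly as well.

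Promoters were printed for the 3 members that fell in the cD2KO libraries and for Rela, the subunit with the smallest relative spread between mice. They are shown because binding of NF-kB to its own inhibitors' promoters defines the feedback. The sequences are the 250 bases before the annotated start in RefSeq (GRCm38.p6), given 5′ to 3′ on the strand of the gene in lower case, with matches to the kappa-B consensus in capitals. Rel is at chr11:23770970-23771219 on the minus strand, Nfkbia at chr12:55492648-55492897 on the minus strand, Nfkbie at chr17:45555450-45555699 on the plus strand and Rela at chr19:5637291-5637540 on the plus strand.
Rel: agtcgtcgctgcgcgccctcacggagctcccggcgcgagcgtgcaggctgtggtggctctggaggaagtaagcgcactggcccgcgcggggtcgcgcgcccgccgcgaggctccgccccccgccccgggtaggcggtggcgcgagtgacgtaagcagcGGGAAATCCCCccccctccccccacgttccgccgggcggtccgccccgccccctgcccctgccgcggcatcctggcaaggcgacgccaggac
Nfkbia: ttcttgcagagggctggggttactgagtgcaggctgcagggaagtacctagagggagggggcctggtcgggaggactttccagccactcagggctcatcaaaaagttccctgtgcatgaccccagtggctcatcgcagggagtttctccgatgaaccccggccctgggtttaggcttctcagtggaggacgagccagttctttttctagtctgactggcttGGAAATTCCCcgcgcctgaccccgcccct
Nfkbie: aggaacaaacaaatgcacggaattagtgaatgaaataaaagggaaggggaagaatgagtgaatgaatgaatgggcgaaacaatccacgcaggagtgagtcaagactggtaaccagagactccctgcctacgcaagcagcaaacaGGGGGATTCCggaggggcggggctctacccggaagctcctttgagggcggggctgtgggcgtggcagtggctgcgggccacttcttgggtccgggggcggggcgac
Rela: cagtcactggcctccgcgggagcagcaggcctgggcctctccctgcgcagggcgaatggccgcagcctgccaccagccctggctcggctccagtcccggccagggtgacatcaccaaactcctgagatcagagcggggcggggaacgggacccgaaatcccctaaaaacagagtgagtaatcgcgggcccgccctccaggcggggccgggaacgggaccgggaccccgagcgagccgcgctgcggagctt

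In Rel the capitals cover 3 overlapping matches, counting both strands, that begin 92 and 91 bases before the start. The match in Nfkbia begins 29 bases before the start and reads as the consensus on the opposite strand. The match in Nfkbie begins 106 bases before the start. The search covered windows of 250 bases before and 50 bases after each start on both strands, and 7 of the 10 members had such a window (Relb, Nfkb1 and Nfkbiz did not). A match was found in 6 of these 7, the exception being Rela, while 5.14% of 27025 genes and 4.51% of 32851 windows held a match. The 6 included Nfkb2 and Bcl3, which did not fall, and Tnfaip3, which was not in the fit. A match therefore did not set apart the members that fell. A match describes the letters of the window and not the binding of NF-kB in these cells.

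Total counts were between 2184073 and 3897787 per mouse, so that 3 counts, taken as the limit of detection, stand for 0.768 to 1.36 CPM. Levels are in CPM, the share of a library per 1e6 counts after scaling with TMM factors. Values of single mice are given in the order c124, c129, c130 for WT and fl125, fl126, fl128 for cD2KO. Dio2 had 21, 5 and 10 counts in WT mice and 15, 5 and 1 in the libraries labelled cD2KO. The library labelled fl125 went against its label, with more Dio2 than any other mouse (6.80 CPM), but reads of the floxed exon are not counted apart from those of the rest of Dio2. The first principal component, with 45.1% of the variance, ran from -50.6 in WT mouse c129 to 72.7 in the library labelled fl125, with the other 4 mice between -25.3 and 7.49. All 15 muscle stem cell markers had reads in every mouse, though Musk had 2 counts in cD2KO mouse fl128. The summed level was between 2054 and 2676 CPM in WT and between 2923 and 3770 CPM in cD2KO mice. At an unadjusted p under 0.05 in edgeR, 4 of the 15 were higher (Myf5, Cdh15, Itga7 and Des) and 0 lower, against 5.34% and 6.62% of all genes tested. In fl128, Des stood at 838 CPM of the sum. Pax7 was at 408, 211 and 431 CPM in WT and at 688, 452 and 314 CPM in cD2KO. Chodl was at 830, 597 and 787 CPM and at 1365, 777 and 542 CPM. Markers of macrophages and other myeloid cells were also present in every library. Their summed level was 5085 to 9579 CPM in WT and 273 to 2839 CPM in cD2KO mice. The libraries thus held RNA of other cells too, and a change in them cannot be assigned to the stem cells.

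Of the 9 NF-kB members tested, Rel, Nfkbia and Nfkbie were lower in the cD2KO libraries and 0 were higher. The line was an unadjusted p under 0.05, as the study draws it, here in edgeR's quasi-likelihood test. Among all 11633 genes tested, 6.62% were lower and 5.34% were higher by the same line. After Benjamini-Hochberg adjustment over all genes 0 members were below 0.1 in edgeR's test, where 0.490% of all genes were lower at that level, and the DESeq2 and limma voom fits also gave 0, while edgeR without a minimum on expression gave 1, Nfkbia at 0.0570. The log2 fold change (cD2KO minus WT) was negative in 8 of the 9 members with a median of -0.52, against -0.02 for all genes tested, of which 5595 were positive. The 3 cD2KO mice lay below the 3 WT mice without overlap in 4 of the 9 (Rel, Nfkbia, Nfkbie and Nfkbiz), as did 10% of all genes, and above them in 0, against 8.10% of all genes.

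**Figure D1:**
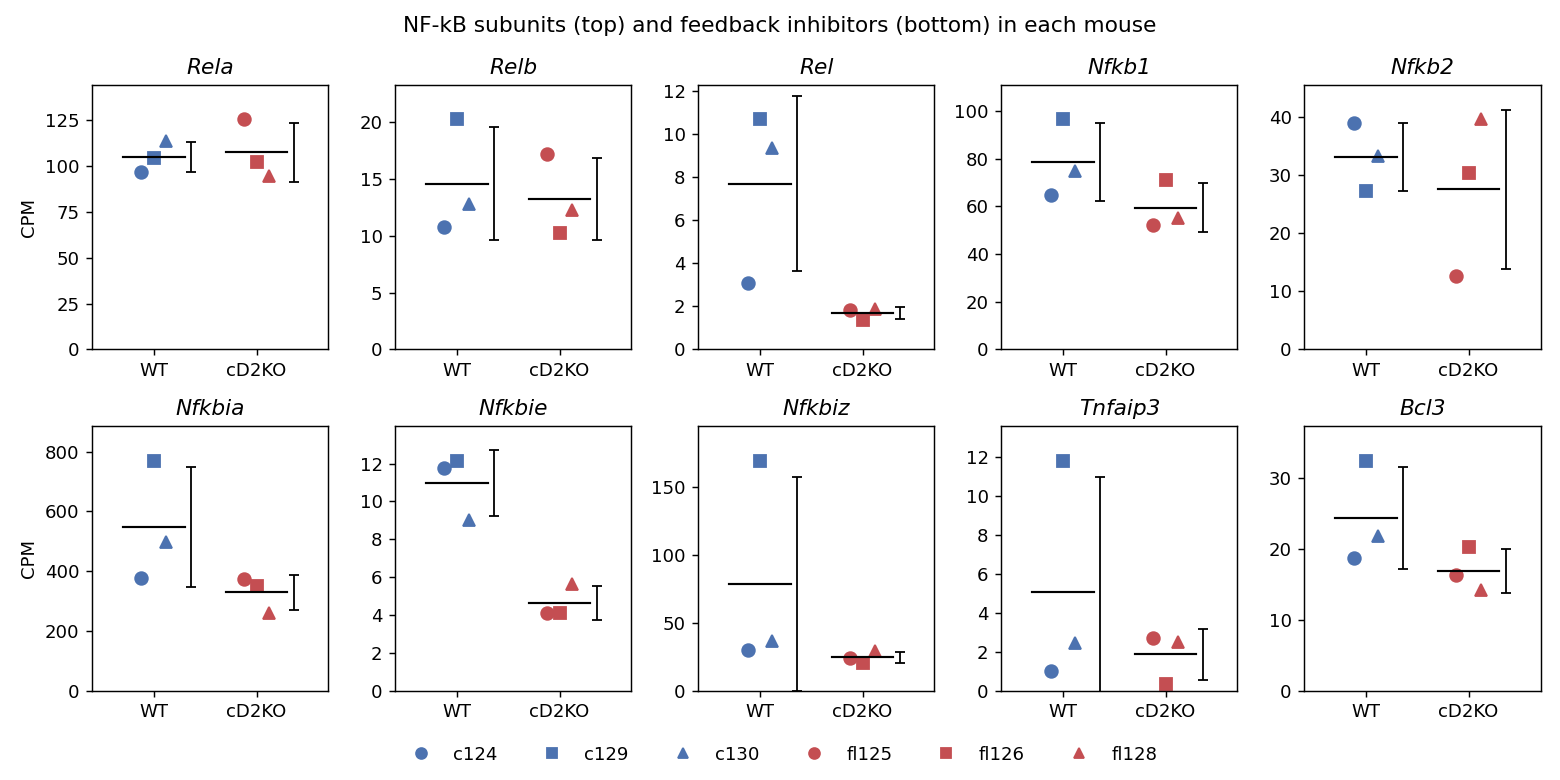
Level in CPM of the 5 NF-kB subunits (top row) and the 5 feedback inhibitors (bottom row) in each of the 3 WT and 3 cD2KO mice. Each point is a mouse with its own marker, the horizontal line is the group mean and the vertical bar beside it spans 1 SD to each side, ending at the axis where it would pass below 0. WT mouse c129 is the highest of the 6 for 8 genes, and the groups do not overlap for Rel, Nfkbia, Nfkbie and Nfkbiz.

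Each of the 5 subunits was examined in turn. Rela, which encodes p65, the main transactivating subunit of the canonical pathway, lies on chr19:5637483-5648130 of mm10. Its level was 97.0, 105 and 114 CPM in WT mice and 126, 102 and 94.6 CPM in the libraries labelled cD2KO. The groups overlapped, with both the highest and the lowest level in the cD2KO group. The mean of 105 ± 8.27 CPM in WT compared with 107 ± 16.1 CPM in cD2KO qMuSCs (SD, n = 3 per group), a log2 fold change of 0.03 with a 95% interval from -0.39 to 0.45 and, from edgeR, an adjusted p of 0.972. The sign of so small a change was negative, at -0.03 and -0.06, without WT mouse c124 or without the library labelled fl125.

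Rel (ENSMUSG00000020275, chr11:23736847-23770970) encodes c-Rel, a subunit best known from lymphocytes and other blood cells. The gene had counts of 12, 29 and 27 in WT mice and 4, 4 and 6 in the libraries labelled cD2KO, or 68 against 14 in all. These stand for 3.07, 10.7 and 9.35 CPM in WT and 1.81, 1.37 and 1.89 CPM in cD2KO. All cD2KO mice lay below all WT mice, and WT mouse c124 was closer to them than to the other WT mice. Rel fell from 7.70 ± 4.06 to 1.69 ± 0.280 CPM (SD, n = 3 per group), a log2 fold change of -2.15 with a standard error of 0.69, a 95% interval from -3.63 to -0.67 and, from edgeR, an adjusted p of 0.204. Rel passed the minimum on expression through the WT mice, and edgeR's own filter left it untested. It did not pass in limma voom, where the change was -1.76. In the 6 fits that leave out a mouse the log2 fold change was between -2.54 and -1.81, with -2.15 without the library labelled fl125. The cD2KO counts were little above the 3 counts taken as the limit of detection, and in RNA from sorted cells fewer cells of a type that expresses a gene and less RNA per cell cannot be told apart.

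Nfkb1 (chr3:135584655-135691547), which encodes p105 and the p50 made from it, was at 64.8, 96.5 and 74.8 CPM in the WT mice and at 52.1, 71.2 and 55.0 CPM in the libraries labelled cD2KO. The highest cD2KO mouse was above the lowest WT mouse. The means were 78.7 ± 16.2 and 59.4 ± 10.3 CPM (SD, n = 3 per group), and the log2 fold change of -0.40, with a 95% interval from -0.88 to 0.08, had an edgeR adjusted p of 0.514. Without WT mouse c129 the change was -0.21, and without c129 and the library labelled fl125 it was -0.11. Nfkb2 (chr19:46304320-46312385) encodes p100, the precursor of p52 in the noncanonical pathway, and was at 38.9, 27.3 and 33.2 CPM in WT mice and at 12.7, 30.5 and 39.6 CPM in cD2KO. The low value was that of the library labelled fl125, and the other two cD2KO mice lay within or above the WT range. Its means were 33.1 ± 5.83 and 27.6 ± 13.7 CPM (SD, n = 3 per group). Its log2 fold change was -0.25 (95% interval -1.02 to 0.51, edgeR adjusted p = 0.848), and it was -0.12 without WT mouse c124, -0.61 without cD2KO mouse fl128 and 0.11 without the library labelled fl125. Nfkb2 shares 830 exon bases with genes on the opposite strand, so its counts are uncertain, since the use of strand is not given in the sources used here.

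Relb (chr7:19606217-19629438) encodes the usual partner of p52. It was at 10.8, 20.3 and 12.8 CPM in WT mice and at 17.2, 10.3 and 12.3 CPM in the libraries labelled cD2KO, with the groups overlapping over most of their range. The WT mean of 14.6 ± 5.0 CPM stood against 13.2 ± 3.58 CPM in cD2KO mice (SD, n = 3 per group). The log2 fold change was -0.14, with a 95% interval from -0.97 to 0.68 and, from edgeR, an adjusted p of 0.929. Its sign changed when single mice were left out, with 0.18 without WT mouse c129 and 0.01 without cD2KO mouse fl126. Of the 5 subunits, Rel alone passed the line, and whether its change differed from those of the other subunits was not tested.

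Among the feedback inhibitors, Nfkbia and Nfkbie fell and Nfkbiz and Bcl3 did not pass the test. Nfkbia (ENSMUSG00000021025, chr12:55489410-55492647) encodes IkB-alpha, the inhibitor that is resynthesized fastest once NF-kB is active, and it is also a familiar immediate early response gene. It was at 377, 769 and 498 CPM in WT mice and at 373, 351 and 261 CPM in the libraries labelled cD2KO. The groups met without crossing, since WT mouse c124 and the library labelled fl125 were almost level, and WT mouse c129 was far above all others. The mean fell from 548 ± 201 to 329 ± 59.3 CPM (SD, n = 3 per group), a log2 fold change of -0.74 with a standard error of 0.26, a 95% interval from -1.30 to -0.18 and, from edgeR, an adjusted p of 0.259. The call was lost without WT mouse c129, where the change was -0.40, and without cD2KO mouse fl128, where it was -0.60. Without the library labelled fl125 it was -0.80 and passed.

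Nfkbie (ENSMUSG00000023947, chr17:45555703-45563169) encodes IkB-epsilon, which acts more slowly and holds p65 and c-Rel dimers in the cytoplasm. It had 46, 33 and 26 counts in WT mice and 9, 12 and 18 in the libraries labelled cD2KO, that is 11.8, 12.2 and 9.0 CPM against 4.08, 4.11 and 5.66 CPM. The groups did not overlap, and here WT mouse c129 was level with c124. Nfkbie fell from 11.0 ± 1.72 to 4.61 ± 0.904 CPM (SD, n = 3 per group), a log2 fold change of -1.24 with a standard error of 0.47, a 95% interval from -2.24 to -0.23 and, from edgeR, an adjusted p of 0.315. It passed in 3 of the 6 fits that leave out a mouse. The change was -1.19 without WT mouse c124, -1.14 without WT mouse c129 and -1.16 without cD2KO mouse fl126, none of which passed, and -1.12 without the library labelled fl125, which did.

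Nfkbiz (chr16:55811375-55838899) encodes IkB-zeta, a nuclear IkB protein induced by IL-1 and Toll-like receptors that helps to switch on secondary response genes such as Il6. It was at 30.0, 170 and 36.3 CPM in WT mice and at 24.5, 20.2 and 28.9 CPM in the libraries labelled cD2KO. The cD2KO mice lay just below the WT mice c124 and c130, and c129 stood far above both. The WT mean of 78.7 ± 79.0 CPM had an SD as large as itself, and the cD2KO mean was 24.5 ± 4.36 CPM (SD, n = 3 per group). The log2 fold change of -1.67 had a 95% interval from -3.58 to 0.23 and, from edgeR, an adjusted p of 0.481. Without WT mouse c129 it was -0.41, and without WT mouse c124 or c130, which leaves c129 as 1 of 2 WT mice, it was -2.07 or -2.02 and passed. Without the library labelled fl125 it was -1.62 and did not pass.

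Bcl3 (chr7:19808462-19822770) encodes another nuclear IkB protein, a cofactor of p50 and p52 dimers. It was at 18.7, 32.4 and 21.8 CPM in WT mice and at 16.3, 20.2 and 14.1 CPM in the libraries labelled cD2KO. The highest cD2KO mouse was between the lower WT mice, and the means were 24.3 ± 7.19 and 16.9 ± 3.06 CPM (SD, n = 3 per group). The log2 fold change of -0.52, with a 95% interval from -1.22 to 0.17, had an edgeR adjusted p of 0.567. Without WT mouse c129 it was -0.24. Bcl3 shares 161 exon bases with antisense genes, so its counts are uncertain in the same way as those of Nfkb2. Tnfaip3 (chr10:19000910-19015657) encodes A20, the ubiquitin-editing enzyme that shuts off signals from TNF and Toll-like receptors. It was just under the minimum on expression and not in the fit, with counts of 4, 32 and 7 in WT mice and 6, 1 and 8 in cD2KO. The mean of 5.08 ± 5.85 CPM in WT was carried by c129, at 11.8 CPM, and that of cD2KO was 1.86 ± 1.32 CPM (SD, n = 3 per group; p = 0.6 in a two-sided exact permutation test, which cannot go below 0.1 here).

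**Figure D2:**
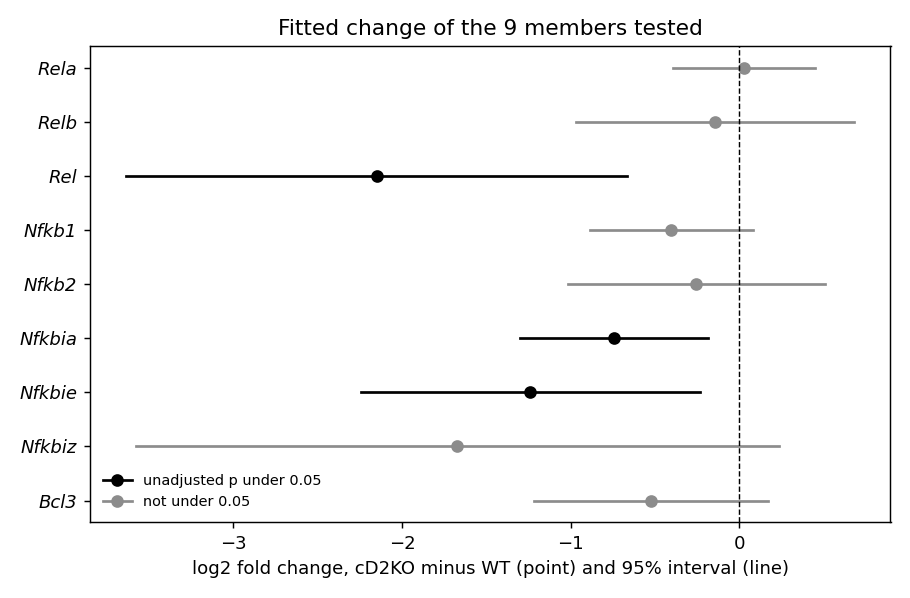
Fitted log2 fold change (cD2KO minus WT) of the 9 NF-kB members tested, from edgeR's quasi-likelihood test over 6 mice, with points for the estimate and lines for its 95% interval. Black marks an unadjusted p under 0.05 and gray the rest. The intervals of Rel, Nfkbia and Nfkbie lie below 0, and those of the other 6 members cross it.

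Across the 10 members, WT mouse c129 had the highest level of the 6 mice in 8, all but Rela and Nfkb2. The lowest level was in a cD2KO mouse for all 10, with 3 in the library labelled fl125, 4 in fl126 and 3 in fl128. Within cD2KO the highest mouse was 1.38-fold the lowest for Rel, on counts of only 4, 4 and 6, and 1.43-fold for Nfkbia and Nfkbiz. This spread was 1.33-fold for Rela, 1.37-fold for Nfkb1, 1.39-fold for Nfkbie and 1.43-fold for Bcl3, and larger for Relb, Nfkb2 and Tnfaip3. Within WT the spread was 3.48-fold for Rel, 2.04-fold for Nfkbia and 5.67-fold for Nfkbiz. It was 1.17-fold for Rela, 1.49-fold for Nfkb1, 1.35-fold for Nfkbie and 1.73-fold for Bcl3. Without WT mouse c129, 1 member (Rel) was lower by the unadjusted line, without the library labelled fl125 the same 3 were, and without both mice 2 were, Rel at -1.85 and Nfkbia at -0.48.

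The signal reaches NF-kB through receptors, adaptors and kinases, and lists of these genes were described beside the members. Of 36 kinases and adaptors 34 were tested, 5 fell and 1 rose, with a median log2 fold change of -0.16. For this list and those below, 6.62% of all 11633 genes tested were lower and 5.34% were higher. Without WT mouse c129, 399 of 11537 genes were lower. Whether a list differed from these shares was not tested. Irak4, the kinase that starts signaling from IL-1 and most Toll-like receptors, was at 23.3, 19.2 and 33.2 CPM in WT mice and at 8.61, 5.13 and 10.4 CPM in the libraries labelled cD2KO. The groups did not overlap, and the mean fell from 25.2 ± 7.24 to 8.04 ± 2.67 CPM (SD, n = 3 per group), a log2 fold change of -1.65 with an edgeR adjusted p of 0.0997. Birc3, a ubiquitin ligase of the TNF receptor complex and itself an NF-kB target, fell by 1.45 on the log2 scale, and Ripk1, the adaptor kinase of that complex, by 0.85 (edgeR adjusted p = 0.162 and 0.235). Ikbke, an IKK-related kinase, and Bcl10, an adaptor of the CARD pathways, fell by 1.33 and 0.66 (edgeR adjusted p = 0.379 and 0.380). Tab1, a partner of the TAK1 kinase, rose from 21.4 to 33.7 CPM, a log2 fold change of 0.66 (edgeR adjusted p = 0.400). The IKK complex itself, named after its values were seen, did not pass, with log2 fold changes of 0.23 for Ikbkb, -0.31 for Chuk and -0.17 for Ikbkg. Without WT mouse c129 the count of kinases and adaptors that fell was 3.

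Of 21 other inhibitors 19 were tested, 2 fell and 0 rose, and the median was 0.02. Nfkbid, which encodes the nuclear inhibitor IkB-NS, was at 7.94, 31.7 and 13.2 CPM in WT mice and at 0, 5.48 and 3.46 CPM in the libraries labelled cD2KO. It fell by 2.47 on the log2 scale (adjusted p = 0.240, edgeR), and it passed the minimum on expression through the WT mice. Tollip, an adaptor that restrains IL-1 receptor signaling, fell by 0.68 (edgeR adjusted p = 0.417). The count of 2 was 0 without WT mouse c129 or cD2KO mouse fl128, 1 without c124, c130 or fl126, and 2 without the library labelled fl125.

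Of 27 receptors 17 were tested, 5 fell and 0 rose, with a median of -0.41. The 5 were Tlr7, Tnfrsf1b, Tlr13, Tlr2 and Il1rap, with log2 fold changes of -2.99, -1.83, -3.12, -2.19 and -1.34 and edgeR adjusted p between 0.152 and 0.396. Low cD2KO counts made these folds imprecise: Tlr7 had 13, 55 and 31 counts in WT mice and 0, 6 and 6 in the libraries labelled cD2KO, and Tlr13 had 6, 38 and 21 and 0, 5 and 2. Tlr7, Tlr13, Tlr2 and Tnfrsf1b passed the minimum on expression through the WT mice, as did Tnf, so their calls lean on that group. Tlr7, Tlr13 and Tlr2 sense microbial products and are known chiefly from myeloid cells, Tnfrsf1b encodes the second TNF receptor and Il1rap the accessory chain of the IL-1 receptor. In the library labelled fl125, 12 of the 27 receptor genes had 0 counts, Tlr2, Tlr7 and Tlr13 among them, against 0 to 4 genes in the other mice. Without that library 6 receptors were lower, without WT mouse c129 2 were, and without WT mouse c130 3 were.

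Of 14 ligands 6 were tested, and Tnf fell while 0 rose. Tnf was at 7.17, 37.9 and 6.58 CPM in WT mice and at 0, 3.08 and 1.57 CPM in the libraries labelled cD2KO. The groups did not overlap, WT mouse c129 was far above the others, and the log2 fold change was -3.35 (edgeR adjusted p = 0.182). The count of ligands that fell was 2 without WT mouse c124 or without cD2KO mouse fl126.

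The induced targets, genes that NF-kB is known to switch on in inflammation, had the lowest median of the 5 pathway lists beside the members, at -0.90. Of 37 genes 26 were tested, 9 fell and 1 rose. Cxcl10, a chemokine also driven by interferon, was at 14.3, 39.4 and 21.1 CPM in WT mice and at 4.08, 9.58 and 4.09 CPM in the libraries labelled cD2KO. It fell by 2.05 on the log2 scale (adjusted p = 0.0997, edgeR). The chemokines Ccl2 and Cxcl1 fell by 2.82 and 1.57, the adhesion receptor Cd44 by 0.90 and the dendritic cell and B cell marker Cd83 by 2.12, with edgeR adjusted p between 0.124 and 0.228. Ccl2 had 18, 64 and 22 counts in WT mice and 2, 4 and 8 in the libraries labelled cD2KO. It passed the minimum on expression through the WT mice, as did Ccl7, another of the 9. Sod2, the mitochondrial superoxide dismutase, rose from 47.1 ± 0.610 to 73.9 ± 13.3 CPM (SD, n = 3 per group), a log2 fold change of 0.65 (edgeR adjusted p = 0.219), and each cD2KO mouse was above each WT mouse. Without WT mouse c129 the count of targets that fell was 4 in place of 9.

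**Figure D3:**
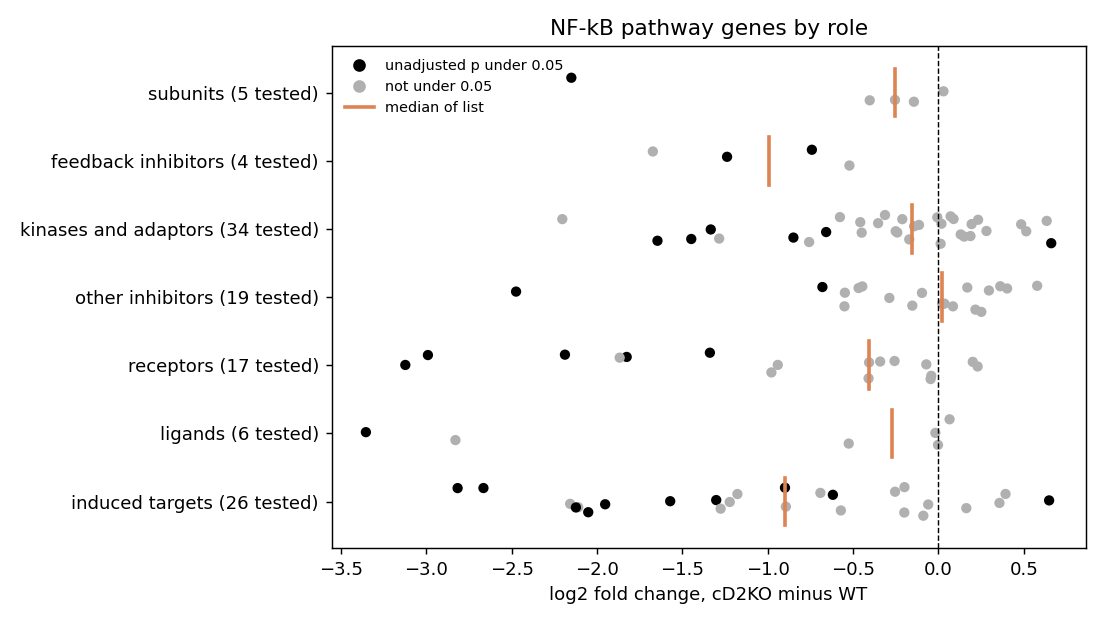
Log2 fold change (cD2KO minus WT, edgeR) of each tested gene of the NF-kB pathway, 1 point a gene, by role. Black points have an unadjusted p under 0.05, gray points do not, and the orange line is the median of the list. The medians lie between -0.99 for the feedback inhibitors and 0.02 for the other inhibitors.

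Markers of other cells also differed between the groups, some lower and some higher in cD2KO mice. Over all genes tested 6.62% were lower and 5.34% were higher. All 20 macrophage and myeloid markers were tested and 8 fell, with a median log2 fold change of -2.0. In all 20 the cD2KO mice lay below the WT mice, as did 10% of all genes tested. The summed level of the 20 was 5085, 9579 and 6480 CPM in WT mice and 273, 2560 and 2839 CPM in the libraries labelled cD2KO. The defining markers Ptprc, Csf1r and C1qa were detected in every library. Msr1, which was among the 8 that fell, passed the minimum on expression through the WT mice. It had 62, 107 and 62 counts in WT mice and 0, 8 and 6 in the libraries labelled cD2KO. Within the cD2KO group the summed level differed 10.4-fold between the highest and lowest mouse. Across the 10 members this spread was between 1.33-fold for Rela and 7.95-fold for Tnfaip3, with 3.12-fold for Nfkb2. The library labelled fl125, the lowest in myeloid markers, was also the lowest of the 6 for Nfkb1, Nfkb2 and Nfkbie and not for the other 7 members, and it had 0 counts of Tnf, Nfkbid, Tlr2, Tlr7 and Tlr13. The part of myeloid RNA in the lower levels of Rel, Nfkbia, Nfkbie, the receptors, Tnf and the induced targets was not tested.

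Of 15 endothelial markers 13 were tested, 7 fell and 0 rose. Of the 7, Pecam1, Cldn5 and Robo4 passed the minimum on expression through the WT mice. The other 6 did not pass. Their log2 fold changes were 0.32 for Esam, 0.04 for Tek, -0.06 for Eng, -0.11 for Vwf, -0.81 for Emcn and -1.12 for Ptprb. The summed level of the 15 was 313 to 473 CPM in WT and 270 to 328 CPM in cD2KO mice. Esam alone made up 76.2 to 143 CPM of it in WT and 145 to 147 CPM in cD2KO mice. Pecam1 and Cdh5 were detected in all 6 mice, and Erg was at 0 in 4 of them, Tie1 and Robo4 in the library labelled fl125 and Cldn5 in fl126. Of the fibroadipogenic progenitor markers 4 of 11 tested fell, and the summed level was 4586 to 7545 CPM in WT and 2855 to 5857 CPM in cD2KO mice. Of 12 mural cell markers 5 went the other way and rose, namely Acta2, Myh11, Tagln, Cnn1 and Mcam. The summed level of the 12 was 5686 to 9614 CPM in WT and 11421 to 16731 CPM in cD2KO mice. In fl128, Acta2 and Myh11 stood at 7901 and 6098 CPM of it. The other 7 did not pass, among them Rgs5, Pdgfrb, Abcc9 and Kcnj8, with log2 fold changes of 0.003, -0.06, -0.23 and -0.36. The part of endothelial, fibroadipogenic and mural RNA in the levels of the NF-kB genes was not tested either.

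Genes that are known to be induced while cells are released from tissue were also compared. Of 21 such genes 20 were tested, and 12 fell and 0 rose, with a median of -0.82. Their summed level was 4704, 13895 and 7493 CPM in WT mice and 4051, 5656 and 4087 CPM in the libraries labelled cD2KO. WT mouse c129 was the highest, as for 8 of the 10 members, and WT mouse c124 lay within the cD2KO range. Fos, Egr1 and Atf3 were detected in every mouse, and Fos and Egr1 fell by 1.07 and 0.86 on the log2 scale (adjusted p = 0.388 and 0.379, edgeR). The part of this response in the levels of Nfkbia, Nfkbiz and the other members was not tested.

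**Figure D4:**
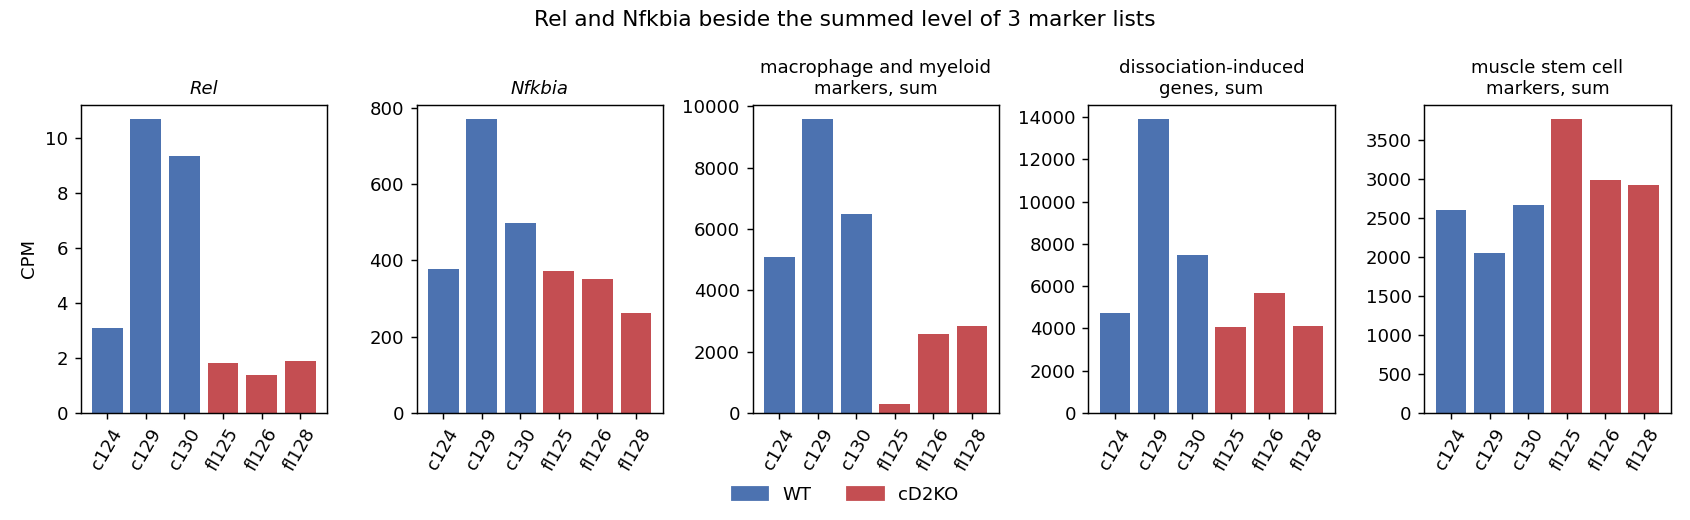
Level in CPM of Rel and Nfkbia in each of the 6 mice (WT in blue, cD2KO in red) beside the summed CPM of the myeloid markers, the dissociation-induced genes and the muscle stem cell markers. Each bar is 1 mouse. WT mouse c129 has the highest bar in the first 4 panels and the lowest in the panel of muscle stem cell markers, and the library labelled fl125 has the lowest myeloid bar, 273 CPM, and the highest muscle stem cell bar, 3770 CPM.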

How the data were processed

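Total RNA of GFP-sorted cells from 3 WT and 3 cD2KO mice was extracted with the RNeasy Mini Kit. It was sequenced by a commercial digital RNA-seq service, with a library per mouse. The authors deposited raw counts of reads per gene, as whole numbers without normalization. The submitters' processing notes name bcl2fastq, STAR 2.6.0a, HTSeq 0.9.1 and mm10. The annotation, the strand setting and whether duplicates were removed are not given in the sources used here, and the limit of 3 counts covers counting error only, whereas the intervals of fold changes include the spread between mice. Of the 31053 gene identifiers 31011 were matched to symbols with GENCODE M21, from which positions and overlaps were taken.

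The study's minimum, a base mean over 10 after DESeq2 size factors, kept 11633 genes. edgeR 4.0.16 in R 4.3.3 (quasi-likelihood, TMM, robust, all 6 mice, no covariate) gave their p-values, which received a Benjamini-Hochberg adjustment across the 11633 genes. In the text "rose", "fell" and "passed" stand for an unadjusted p under 0.05. CPM were computed on TMM-scaled library sizes. Tnfaip3, under the minimum, was compared with a two-sided exact permutation test of mean CPM. Standard deviations are between mice. The fit was tested on simulated data. Alternatives were DESeq2 1.42.0, limma voom (limma 3.58.1), other size factors, other minimums, non-robust estimation, leaving out each mouse and stricter lines. Leaving out c129 and fl125 together was added after seeing the data.

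The 10 members and all lists were chosen with earlier results of these data known. The named genes were all members, up to 5 genes in each direction by smallest p from each pathway list among those with an unadjusted p under 0.05, and defining markers. Xist had 0 to 1 counts and Ddx3y 258 to 418 counts per mouse, so that all 6 mice had Y-linked reads and almost none of Xist. Another Y-linked gene, Eif2s3y, had 79 to 96 counts in WT mice and 20 to 38 in cD2KO mice, a log2 fold change of -1.56 (edgeR adjusted p = 0.0885). The arrays and the cell-based assays of the study were not used here.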

Additional observations from a re-analysis of the deposited data

How the results depend on the processing

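No member was higher in cD2KO under any alternative. The count of lower members, 3 as reported, was 4 in DESeq2 and with non-robust estimation, 2 in limma voom, 1 with a minimum mean of 50 (6 members tested), 0 at an adjusted p under 0.1 or 0.05, and 1 to 4 with each mouse left out, the 1 without WT mouse c129. Leaving out each mouse gave 3 to 6 lower kinases and adaptors, 0 to 2 other inhibitors, 2 to 6 receptors, 1 to 2 ligands and 4 to 13 induced targets. The minimum mean of 50 gave 2, 1, 0, 0 and 4 of these in the same order. An adjusted p under 0.1 gave 1, 0, 0, 0 and 1, and one under 0.05 gave 0 in each list. Without c129 and fl125 together the counts of inhibitors, receptors, ligands and targets were 1, 3, 0 and 4. DESeq2 and its size factors in edgeR each gave 1 other inhibitor. In limma voom 2 receptors and 0 ligands were lower, edgeR's own filter gave 3 receptors, non-robust estimation 2 ligands and no minimum 18 induced targets.

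The sign of Rela turned to -0.0033 with the minimum mean of 50, and to -0.064 without c129 and fl125 together, and its log2 fold change ranged from -0.056 to 0.11 with each mouse left out. For Relb this range was -0.33 to 0.18, positive without c129 and without fl126 (0.01), and for Nfkb2 it was -0.61 to 0.11, positive without fl125. The causes were not tested. The adjusted p of Nfkbia ranged from 0.0570 (edgeR without a minimum) to 0.289 over 8 alternatives that keep all mice, that of Rel from 0.130 to 0.475 over 6 and that of Nfkbie from 0.288 to 0.375 over 7. Over all genes 399 were lower without c129, against 770 as reported, 933 were higher without fl125 and 402 without fl128, against 621. The 90 genes at an adjusted p under 0.1 became 406 in DESeq2, 22 in limma voom, 668 without a minimum and 0 with non-robust estimation. At this depth Rel, Nfkbie and Tnfaip3 rest on few reads, and 3 mice a group leave wide intervals. No paired analysis was possible because the labels give the mice no numbers shared between the groups.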

Other observations

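Several cytokine genes of the NF-kB lists, chosen after their values were seen, gave almost no reads. Il1a, Lta, Cd40lg, Ccl20 and Csf2 had 0 counts in all 6 mice, which allows up to 3 counts or 0.768 to 1.36 CPM per mouse. Il6, a classic NF-kB target of activated stem cells and macrophages, had 0, 14 and 14 counts in WT mice and 1, 2 and 0 in the libraries labelled cD2KO. The 11 counts of Ptgs2, which encodes cyclooxygenase-2, all came from WT mouse c129, and the 8 counts of Csf3 all came from cD2KO mouse fl128.

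Markers of lymphocytes and neutrophils were uneven among mice of either group. Their summed level was 179, 919 and 192 CPM in WT mice and 66.2, 457 and 412 CPM in the libraries labelled cD2KO. The groups overlapped, and of the 4 of 14 genes tested 0 passed in either direction.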
